A study of Rattus norvegicus with 6 samples.

Results

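The genes described here are the rat long-chain fatty acid transporter genes Slc27a1 to Slc27a5 and the long-chain acyl-CoA synthetase genes Acsl1, Acsl3, Acsl4, Acsl5 and Acsl6, 10 genes in all. A probe counted for a gene when its accession, without the version, was that of the gene in the RefSeq table of assembly GRCr8. By this rule 8 of the 10 genes had a probe, with 15 probes in total, and 7 genes had a probe above background on at least 3 of the 6 arrays. Slc27a3 and Slc27a4 had no probe by this rule and were not analysed here. The genes were chosen by family with earlier results of the same comparison known, among them the large LIPUS minus control difference of Slc27a5. Their differences between LIPUS and control are therefore given as a description, with no p-value.

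The study measured RNA of bone marrow cells from male rats of 8 weeks, cultured under osteogenic conditions, on day 10 of culture. The LIPUS group was treated with low-intensity pulsed ultrasound, a mechanical stimulus of short bursts of sound waves, and the control group received no ultrasound. Each group had 3 samples, and the Cy3-labelled RNA of each sample was hybridised alone to a single-colour Agilent rat array. The labels name no strain, genotype, ultrasound dose or schedule, and the age is that of the donor animals. They do not say whether replicates came from separate animals or cultures. The p-values compare group differences with the spread between these samples, and it is not known which unit that spread covers.

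Long-chain fatty acids enter cells with the help of membrane proteins and are trapped inside as thioesters of coenzyme A. The Slc27 genes encode the fatty acid transport proteins, most of which also carry acyl-CoA synthetase activity, and the Acsl genes encode the long-chain acyl-CoA synthetases of the outer mitochondrial membrane, endoplasmic reticulum, peroxisomes and lipid droplets. The acyl-CoA they form is oxidised, stored in glycerolipids or built into membranes, and both adipocytes and osteoblasts of bone marrow use fatty acids as fuel.

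The promoters of 2 of the genes are shown because these genes had the largest difference above 0 (Slc27a5) and below 0 (Acsl4) among those tested. Each sequence is that of RefSeq on GRCr8, from 250 bases before to 50 after the start used for the window, read 5′ to 3′ on the gene's own strand. CpG dinucleotides are in capitals. The Slc27a5 window is chr1:82699286-82699585 and the Acsl4 window is chrX:110803212-110803511, both on the minus strand. The start used for Slc27a5 is the outer end of its annotated span. That of Acsl4 lies inside the annotated gene, whose span ends at 110803416.
Slc27a5: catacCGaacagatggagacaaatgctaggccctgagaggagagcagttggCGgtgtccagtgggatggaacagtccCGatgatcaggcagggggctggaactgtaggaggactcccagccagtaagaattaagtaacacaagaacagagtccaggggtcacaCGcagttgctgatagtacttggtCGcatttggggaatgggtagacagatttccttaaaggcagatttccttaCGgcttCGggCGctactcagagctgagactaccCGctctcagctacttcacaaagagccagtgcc
Acsl4: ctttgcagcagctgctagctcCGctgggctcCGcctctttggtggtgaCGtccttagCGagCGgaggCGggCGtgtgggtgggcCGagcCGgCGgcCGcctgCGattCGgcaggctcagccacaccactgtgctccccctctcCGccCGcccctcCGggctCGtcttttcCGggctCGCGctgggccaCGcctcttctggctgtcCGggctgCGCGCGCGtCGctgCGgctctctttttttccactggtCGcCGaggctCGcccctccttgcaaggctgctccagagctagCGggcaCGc

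The Slc27a5 window holds 9 CpG dinucleotides and has a GC content of 53%. The Acsl4 window holds 33 CpG dinucleotides at a GC content of 70.7%, against a median of 7 CpG over all 33469 promoters of that length. The GC box GGGCGG, searched on both strands, was found in 5 of the 10 genes' windows, with 2 matches in Acsl4 and none in Slc27a5, and 33.1% of all promoters hold it. The nuclear receptor half-site AGGTCA was found on either strand in Slc27a1 and Slc27a2 only, that is in 2 of 10 windows against 16.2% of all promoters. The direct repeat of that half-site with 1 base of any kind between the copies, which is the form bound by peroxisome proliferator-activated receptors, was in none of the 10 windows and in 0.0538% of all promoters. The windows of Slc27a1, Acsl1 and Acsl6 lie wholly inside the annotated gene, and the start used for Acsl4 is also inside its gene. The counts include these windows, and with them the Slc27a1 half-site match and the GC box matches of Acsl4 and Acsl6. All matches describe the letters of the windows and say nothing about binding.

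Probes above background made up 55.3% to 61.9% of gene probes on the LIPUS arrays and 53.5% to 61.3% on the control arrays. A probe was above background when its spot brightness minus local background exceeded 95% of that array's negative control spots, of which there are 153. Levels below are log2 values relative to each array's 75th percentile, so that 0 is the 75th percentile of the gene probes of that array. A difference is LIPUS minus control with its moderated standard error (SE). A gene was called at a limma Benjamini-Hochberg adjusted p under 0.05 over all 21847 features tested. Of these features 1449 were called (6.63%), 632 higher in LIPUS (2.89%) and 817 lower in LIPUS (3.74%), and for 5934 (27.2%) the 3 LIPUS and 3 control values did not overlap. No label or file header used here names a slide. From the tilt of the scanned grid, control 1 and control 2 were inferred to share one slide, and control 3 and all LIPUS arrays another. Values against control 3 alone rest on that inference as values within a slide.

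Of the 7 tested genes, 1 was called higher (Slc27a5), 0 were called lower and 6 were not called, beside the 2.89% and 3.74% of all features. Groups did not overlap in 4 of the 7 (Slc27a2, Slc27a5, Acsl1 and Acsl4), beside the 27.2% of all features. The median difference of the 7 was 0.26, against 0.03 over all features. In these counts Acsl1 stands by its brightest probe, part of whose spot was at the scanner limit on every array. With a probe little at the limit, an alternative added after seeing the data, Acsl1 differed by 0.93 ± 0.21 and was called higher. The comparison had a part in the choice of the genes, and nothing is read from these counts. Set against control 3 alone, 6 of the 7 differences had the same sign, the exception being Acsl5 at 0.02.

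**Figure D1:**
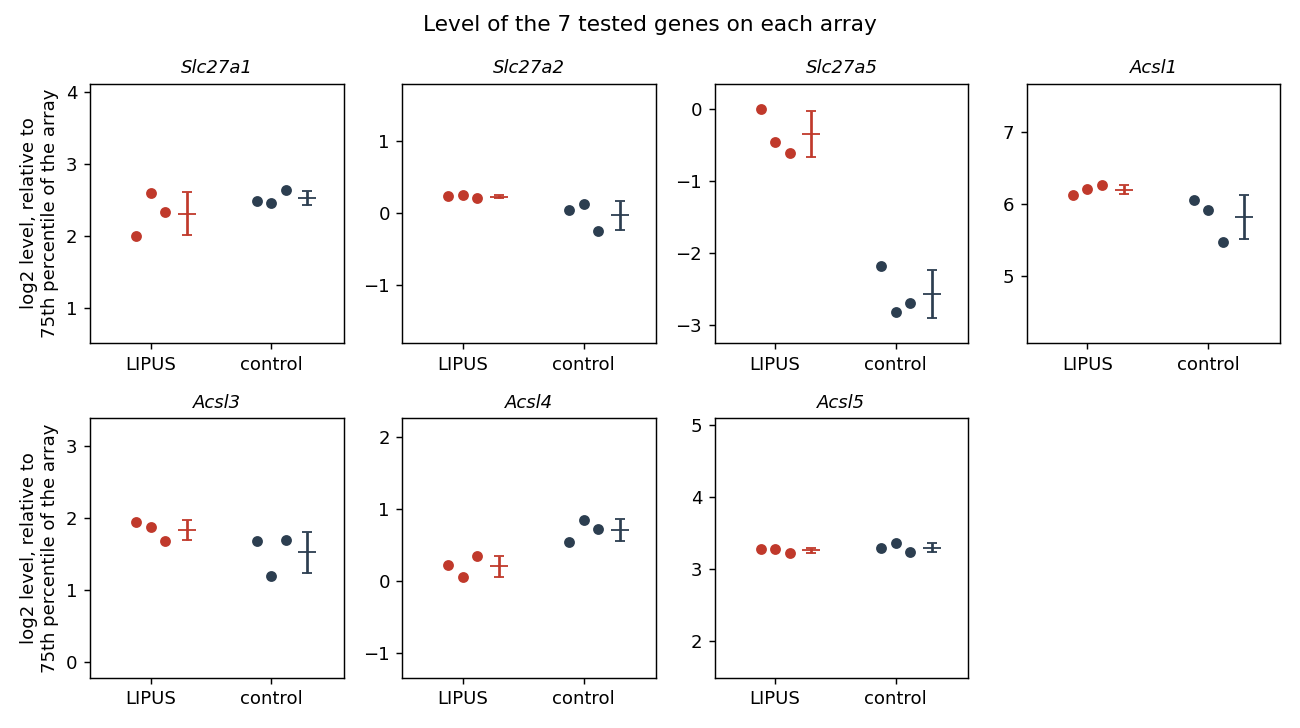
Log2 level of each of the 7 tested genes, relative to the 75th percentile of its array, on the LIPUS arrays (left of each panel) and the control arrays (right). Points are arrays 1 to 3 from left to right, bars are the mean and SD (n = 3 each), and every panel spans the same height with its own centre; the gap between groups is wide in Slc27a5 and small or absent in the other genes.

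Among the transporters, Slc27a5 (NM_024143, chr1:82688742-82699335 on GRCr8) encodes FATP5, the bile acyl-CoA synthetase and fatty acid transporter known mainly from liver. Its brighter probe, A_43_P12402, was at 0.01, −0.45 and −0.60 on LIPUS arrays 1 to 3, against −2.18, −2.81 and −2.69 on control arrays 1 to 3. All 3 LIPUS values lay above all 3 control values, with no overlap. The means were −0.35 ± 0.32 in LIPUS and −2.56 ± 0.33 in control (SD, n = 3 each), a difference of 2.21 ± 0.23. The probe was above background on 3 LIPUS arrays and on 0 control arrays. With the control level put at the background limit, it was at least 3.4-fold higher in LIPUS under 75th percentile scaling. Because the probe passed the filter through the LIPUS arrays alone, levels above background on all 3 LIPUS arrays were a condition of its being tested. Over all features, 126 were above background on all 3 LIPUS arrays and on 0 control arrays, and 50 of them were called higher.

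The raw brightness of this probe was 768, 445 and 431 on the LIPUS arrays and 153, 45 and 100 on the control arrays. The local background around the same spots was 39, 42 and 45 on the LIPUS arrays and 46, 41 and 59 on the control arrays. At this probe the background values overlapped between groups and the spot values did not. Against control 3 alone, the difference was 2.34. It was no longer called with plain background subtraction (4.51 ± 1.07) or when control 3 was the only control array in the fit, an alternative added after seeing the data in which limma called 0 features (3336 at an unadjusted p under 0.05). In the value table deposited by the authors, the probe stood at −0.19, −0.06 and −0.65 in LIPUS and at −3.99, −5.07 and −5.99 in control, a difference of 4.72 on that table's log2 scale. Both 4.51 and 4.72 rest on control spots below the background limit, so their size is not read.

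A second probe of Slc27a5, A_44_P141930, was dimmer and was left out of the test. It was above background on 2 LIPUS arrays and 0 control arrays. Its levels were −1.33, −1.37 and −2.49 in LIPUS and −2.14, −2.38 and −3.03 in control. LIPUS 3 lay among the control values, and the mean difference was 0.78. Its brightness was 381, 233 and 78 on the LIPUS arrays and 192, 88 and 115 on the control arrays. The local background around these spots was 162, 71 and 57 on the LIPUS arrays and 79, 47 and 108 on the control arrays. The difference had the same sign at both probes and was smaller at the dimmer one.

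Slc27a1 (NM_053580, chr16:18311859-18337024) encodes FATP1, the transporter known from muscle and adipose tissue. Probe A_44_P290394 was at 2.00, 2.60 and 2.34 in LIPUS and at 2.49, 2.46 and 2.64 in control. The groups overlapped, and the difference of −0.22 ± 0.19 was not called. The dimmer probe A_44_P283518 was at 0.21, −0.09 and 0.22 in LIPUS and at 0.42, 0.35 and 0.47 in control, with no overlap and a difference of −0.30 ± 0.16. Both probes were lower in LIPUS by about the same amount, within 2 standard errors of 0.

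Slc27a2 (NM_031736, chr3:134258101-134295581) encodes FATP2, a transporter and very long-chain acyl-CoA synthetase known from liver and kidney. Probe A_43_P12655 was at 0.23, 0.24 and 0.20 in LIPUS, against 0.04, 0.12 and −0.26 in control. The LIPUS values were close together at 0.22 ± 0.02 (SD, n = 3) and lay above every control value, whose mean was −0.03 ± 0.20 (SD, n = 3). The difference was 0.26 ± 0.17, which was not called. With arrays scaled on the spike-in probes, RNAs added in known amounts, it was −0.09. The second probe, A_44_P997755, was close to background, above it on 2 LIPUS arrays and 1 control array, and differed by 0.36 ± 0.17.

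Of the synthetases, Acsl1 (NM_012820, chr16:52487870-52554110) encodes the main isoform of adipose tissue, heart and liver, which feeds both triglyceride synthesis and oxidation. It has 4 probes, and all 4 were higher in LIPUS with no overlap between groups. The brightest, A_43_P14632, was at 6.13, 6.21 and 6.26 in LIPUS and at 6.06, 5.92 and 5.48 in control, a difference of 0.38 ± 0.19 that was not called. Part of this probe's spot was at the scanner's upper limit on every array, for 34%, 13% and 28% of pixels in LIPUS and 43%, 15% and 15% in control. In the authors' value table its groups overlapped, and the difference was 0.21.

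The other 3 probes of Acsl1 had no pixels at the limit. Probe A_44_P1017662 was at 3.88, 4.12 and 3.93 in LIPUS, against 2.83, 2.81 and 3.49 in control. Control 3 stood above the other control arrays but below all LIPUS arrays. The difference was 0.93 ± 0.21, or 1.91-fold, and was called higher when every probe was tested on its own, and also when a probe with few pixels at the limit stood for the gene, an alternative added after seeing the data. Against control 3 alone it was 0.48. Probe A_44_P172489 was at 2.21, 2.11 and 2.06 in LIPUS and at 1.69, 1.36 and 1.77 in control, a difference of 0.52 ± 0.17. Probe A_44_P505025 was at 1.21, 1.37 and 1.27 in LIPUS and at 1.03, 0.65 and 0.80 in control, a difference of 0.46 ± 0.17. The mean over the 4 probes differed by 0.57 ± 0.15, which was not called. Under spike-in scaling the 4 differences shrank to 0.03, 0.58, 0.17 and 0.11, in the order given, and kept their sign. Of the 33 genes with at least 4 kept probes, 3 (9.09%), Acsl1 among them, had every probe without overlap and in one direction. Probes of one gene read the same RNA samples and are not replicates.

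**Figure D2:**
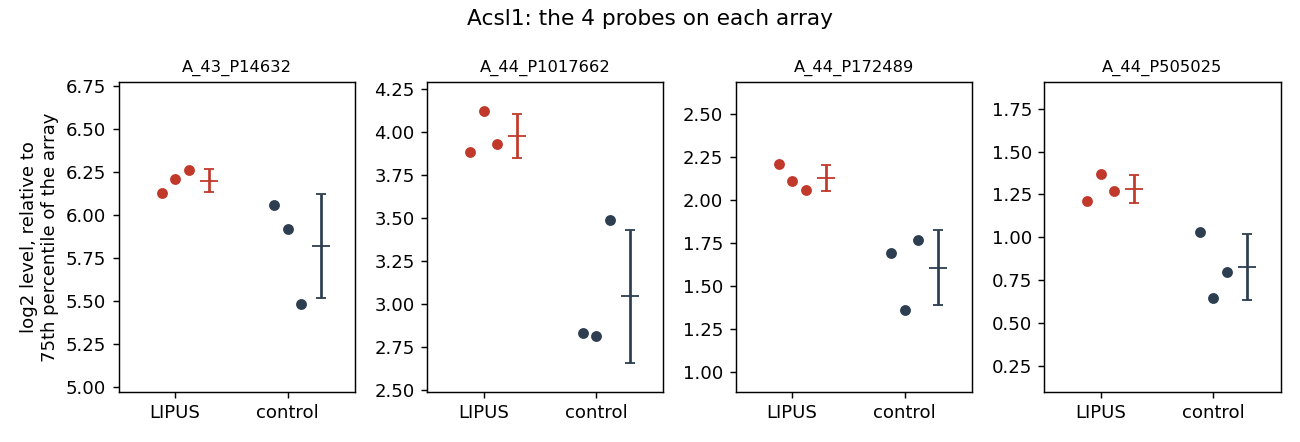
Log2 level of the 4 Acsl1 probes, relative to the 75th percentile of the array, on the LIPUS arrays (left) and control arrays (right) of each panel, with mean and SD (n = 3 each). Points are arrays 1 to 3 from left to right, and panels have equal heights and their own centre. The LIPUS points lie above the control points in every panel, by 0.38 to 0.93 on average.

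Acsl3 (NM_057107, chr9:87563601-87613078) encodes an isoform of the endoplasmic reticulum and lipid droplets. Its probe was at 1.94, 1.87 and 1.68 in LIPUS and at 1.67, 1.19 and 1.69 in control. The groups overlapped at LIPUS 3, and the difference of 0.31 ± 0.19 was not called. It was 0.14 against control 3 alone and −0.04 under spike-in scaling.

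Acsl4 (NM_053623, chrX:110739633-110803416) encodes the isoform that prefers arachidonic acid and other polyunsaturated fatty acids. Probe A_42_P654061 was at 0.22, 0.06 and 0.35 in LIPUS, against 0.55, 0.85 and 0.73 in control. Every LIPUS value lay below every control value. The means were 0.21 ± 0.15 in LIPUS and 0.71 ± 0.15 in control (SD, n = 3 each), a difference of −0.50 ± 0.17 that was not called. It was −0.52 against control 3 alone and −0.85 ± 0.24 under spike-in scaling, where it was called lower. The second probe, A_44_P375004, was at −0.52, −0.74 and −0.57 in LIPUS and at −0.62, −0.52 and −0.02 in control, with overlap and a difference of −0.22 ± 0.20. Both probes had the same sign.

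Acsl5 (NM_053607, chr1:264294851-264341943) encodes a mitochondrial and endoplasmic reticulum isoform known from intestine and liver. Its probe was at 3.28, 3.27 and 3.22 in LIPUS and at 3.29, 3.36 and 3.23 in control. The groups overlapped over a narrow range, and the difference was −0.04 ± 0.15. Acsl6 (NM_130739, chr10:38940668-38999515), the isoform of brain and testis, had 1 probe, which was above background on 0 of the 6 arrays.

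Over all 13 kept probes of the 7 genes, 8 were higher and 5 lower in LIPUS, and 9 did not overlap between groups, beside 27.2% of the 23260 kept probes of the arrays. The probes of one gene had the same sign in each gene with several. Under spike-in scaling the median of all features was −0.32, against 0.03 under 75th percentile scaling, so differences on that scale are read relative to this shift.

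**Figure D3:**
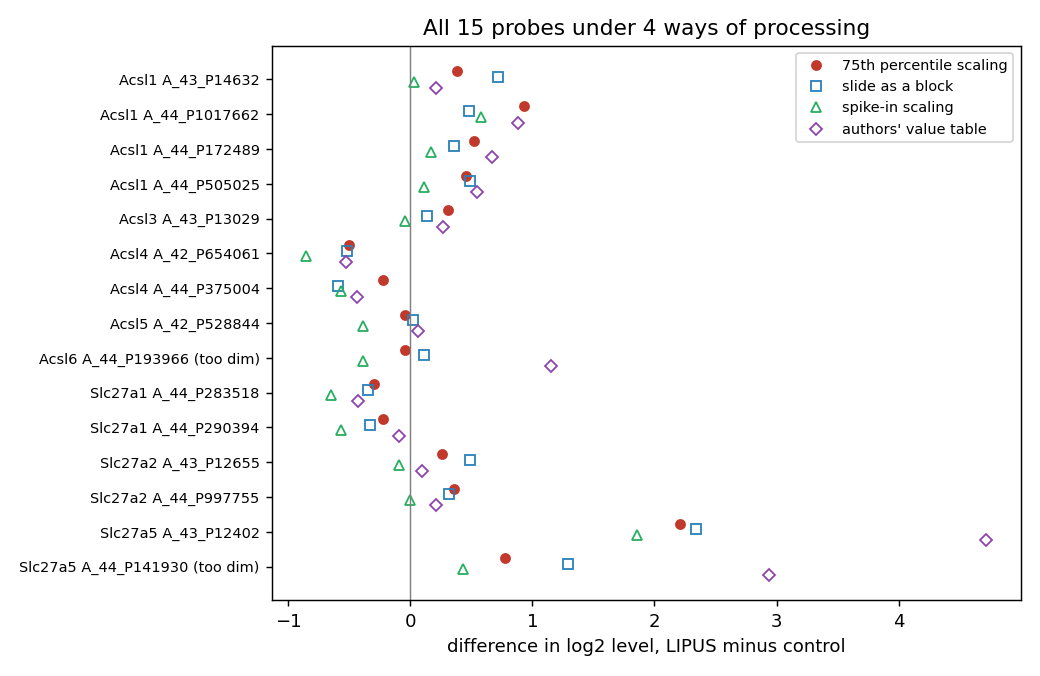
Difference in log2 level, LIPUS minus control, of all 15 probes under 75th percentile scaling, with the inferred slide as a block, under spike-in scaling and in the authors' value table. Spike-in values (triangles) lie to the left of the others for most probes, Acsl4 stays below 0 and the 4 Acsl1 probes stay above 0 in each, and the value table gives 4.72 for Slc27a5. Probes marked as too dim were not tested.

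By likeness of pattern, the 3 genes with a symbol whose levels followed Slc27a5 most closely over the 6 arrays were Grin3b, a glutamate receptor subunit gene, at a Pearson coefficient of 0.994, Asic3, an acid-sensing ion channel gene, at 0.994, and Aldoc, the gene of an aldolase of glycolysis, at 0.993. Their differences were 1.94, 1.03 and 0.53. Since Slc27a5 splits the arrays by group, the coefficient mostly measures the same split, and 6 arrays give it little precision.

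The genes around the transporters and synthetases were described from lists of 131 genes, of which 101 had a probe and 79 were tested. Of these, 1 was called higher, 0 lower and 78 were not called, with a median difference of −0.01, beside 2.89% and 3.74% of all features. At an unadjusted limma p under 0.05 there were 11. The called gene was Scd, the delta-9 desaturase that makes monounsaturated fatty acids. It was at 2.12, 2.51 and 2.11 in LIPUS, against 1.48, 1.20 and 1.42 in control. All LIPUS values lay above all control values, and the difference was 0.88 ± 0.18 (limma adjusted p = 0.0191). Over the alternatives its limma adjusted p was 0.0068 to 0.211. The call was lost with the slide as a block (0.83, limma adjusted p = 0.164), under spike-in scaling (0.53, adjusted p = 0.104), with plain background subtraction (0.95, adjusted p = 0.0579), with no filter on dim probes (0.88, adjusted p = 0.0636) and in the authors' value table (0.95, adjusted p = 0.0512). Without LIPUS 2 it was 0.75 with a limma adjusted p of 0.0781, without control 1 the p was 0.054 and without control 2 it was 0.0713.

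In fatty acid uptake and binding, 10 genes were tested and none was called, with a median of −0.04. Cd36, the scavenger receptor that takes up fatty acids, differed by 0.13 ± 0.16, and Lpl, lipoprotein lipase, by −0.07 ± 0.15. Fabp3, the heart fatty acid binding protein, differed by −0.38 ± 0.19. The probe of Fabp4, the adipocyte form, was at the scanner limit on 4 of 6 arrays, and no difference is given for it. None of these differences passed the test. These genes and those named in the next 2 paragraphs, other than Scd, were chosen after their values were seen.

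In mitochondrial beta-oxidation, 19 genes were tested with a median of 0.02 and a range of −0.42 to 0.45. The carnitine palmitoyltransferases, which pass acyl groups into the mitochondrion, differed by 0.11 ± 0.15 (Cpt1a), −0.15 ± 0.19 (Cpt1b) and 0.02 ± 0.17 (Cpt2). The extremes were the dehydrogenases Acadl at −0.42 ± 0.17 and Acadvl at 0.45 ± 0.15. No gene of this list was called. In peroxisomal oxidation, 14 genes had a median of −0.15 and none was called. The thioesterases, which hydrolyse acyl-CoA back to free fatty acid and so oppose the synthetases, had 6 tested genes with a median of −0.26, from Acot9 at −0.53 ± 0.16 to Acot8 at 0.31 ± 0.17.

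In glycerolipid synthesis, 9 genes had a median of 0.18. The acyltransferases Gpam, at 0.50 ± 0.22, and Dgat2, at 0.49 ± 0.17, were the highest, and neither was called. In fatty acid synthesis, elongation and desaturation, 10 genes had a median of 0.02, with Fasn, fatty acid synthase, at 0.12 ± 0.16. Among transcriptional regulators, 6 genes had a median of 0.06. Pparg, the nuclear receptor of adipocytes, differed by −0.12 ± 0.15, and Ppara was above background on no array. The extremes were Nr1h3, the liver X receptor, at −0.56 ± 0.16 and Mlxipl, a glucose-sensing factor of lipid synthesis, at 0.58 ± 0.20. The 3 other acyl-CoA synthetases tested had a median of −0.22. Of bile acid synthesis and conjugation, the pathway in which Slc27a5 acts in liver, 2 genes were tested. Cyp27a1 differed by 0.15 ± 0.17 and Hsd3b7 by −0.19 ± 0.16. Baat, which conjugates the bile acyl-CoA that FATP5 makes, was above background on 2 LIPUS and 0 control arrays, Cyp7a1 on 1 LIPUS and 0 control arrays, and Cyp8b1 and Akr1d1 on no array. Acsm3, Acot12 and Ppard, from other lists, were also above background on 2 LIPUS and 0 control arrays. Acox3 was above it on 0 LIPUS and 2 control arrays, and none of these was tested.

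**Figure D4:**
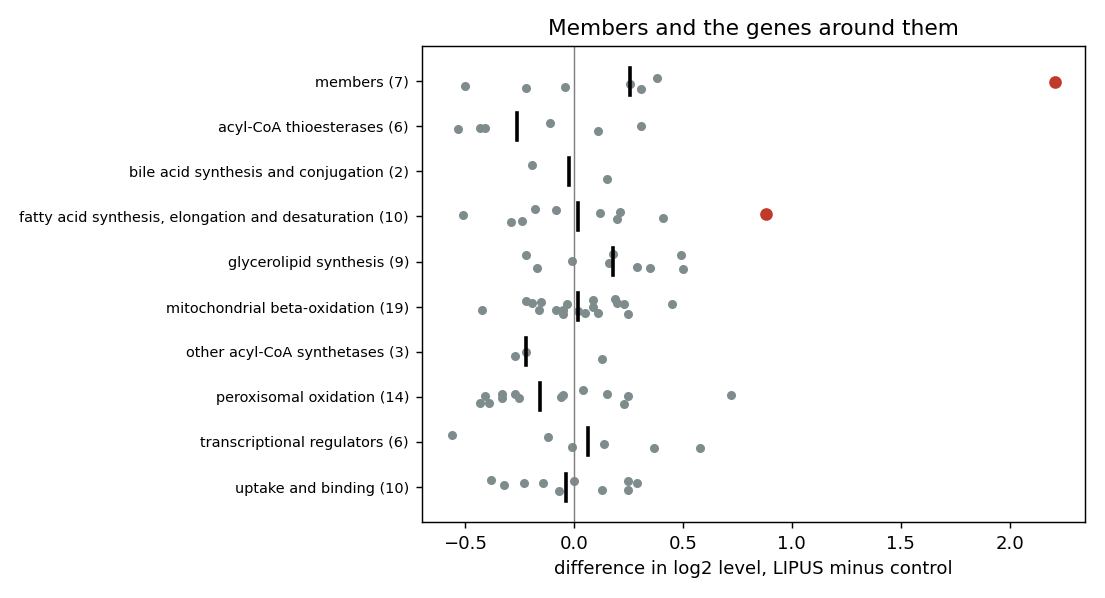
Difference in log2 level, LIPUS minus control, of the 7 tested transporter and synthetase genes (top) and of the 79 tested genes of 9 lists, with the number tested in parentheses. Each point is a gene, red where called, and black ticks are medians; Slc27a5 at 2.21 and Scd at 0.88 are the called genes, and the 9 list medians lie between −0.26 and 0.18.

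Markers of the cell types such cultures can hold are given beside these values. In bulk RNA, fewer cells of a type and less RNA per cell cannot be told apart. Of the hepatocyte markers, listed because Slc27a5 is known from liver, 10 genes had 14 probes. Apoa1, Ttr, Fgb and Cyp2e1 were above background on no array. The summed level of the list, in units of the array's 75th percentile, was 2.46, 2.57 and 2.78 in LIPUS and 2.52, 2.88 and 2.63 in control, so the groups overlapped. Of the 14 probes, 7 were above background on any array, so the sum holds many values near background and its overlap says little. Alb, the 1 gene tested, was not called at −0.65 ± 0.17. It was above background on 1 LIPUS and 3 control arrays, and every LIPUS value lay below every control value.

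Probes at the scanner limit give no usable difference, so each sum that follows was also taken over probes with under 10% of pixels at the limit on every array, an alternative added after seeing the data. Adipocyte markers were listed because Acsl1, Slc27a1 and Scd are expressed in fat cells. Over 9 of their 11 probes, the other 2 being at the limit, the summed level was 98, 101 and 88.1 in LIPUS and 100, 94 and 82.9 in control, which overlapped. Over all 11 it was 255, 285 and 261 in LIPUS and 241, 263 and 209 in control. The brightest markers were Cfd, at the limit on 6 arrays, Fabp4, at the limit on 4, and Retn, with a difference of 0.00 ± 0.17. Lep was above background on no array. Of 8 genes tested, 1 was called higher, beside 2.89% of all features, and 7 were not called. The called gene, named after its value was seen, was Cidec, which encodes a lipid droplet protein and rose by 1.09 ± 0.18 (limma adjusted p = 0.00807).

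Osteoblast and osteocyte markers over 5 of 8 probes had a summed level of 83.3, 95.7 and 86.8 in LIPUS and 55.4, 55 and 57.6 in control, and 318, 380 and 346 in LIPUS and 246, 280 and 227 in control over all 8. Of these genes 3 of 8 were called higher, 0 lower and 5 not called, beside 2.89% of all features called higher. The called genes were Mepe and, named after their values were seen, Dmp1 (1.59 ± 0.15) and Phex (1.29 ± 0.20). The brightest of the list, Mepe, Spp1 and Bglap, were at the limit on 3, 4 and 6 arrays, so no size is given for the difference of Mepe. Macrophage and monocyte markers over 9 of 15 probes had a summed level of 67.6, 56 and 64.5 in LIPUS and 149, 142 and 155 in control, and 459, 453 and 493 in LIPUS and 554, 619 and 531 in control over all 15. Here 7 of 12 genes were called lower, beside 3.74% of all features. The brightest, C1qb, Lyz2 and C1qa, were at the limit on 6, 6 and 5 arrays. Endothelial markers, with no probe at the limit, had a summed level of 2.51, 1.92 and 2.26 in LIPUS and 5.78, 5.02 and 5.47 in control. Of these, Esam (−1.80 ± 0.22) and Icam2 (−1.05 ± 0.19) were called lower, Kdr (−0.60 ± 0.19) was not called, and Pecam1 was above background on no array. The osteoblast, macrophage and endothelial sums did not overlap between groups, with or without the probes at the limit. Their part in the differences of the transporter and synthetase genes was not tested. Of the erythroid and B cell lists 0 genes were tested, and Hbb was above background on no array.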

How the data were processed

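Per the file headers, the deposited spot tables hold 45220 spots per array with spot and local background brightness as intensity, the share of pixels at the scanner limit as percent, and a quality score per spot. For the scanner and its software, versions were not given in the sources used here. The authors also deposited a value table on a log2 scale, whose 75th percentile is 0 on each array and whose making is not stated. The design planned limma's normexp (offset 50), to be replaced by a processed signal column if the files held one. The spot tables lack that column, so normexp was applied to spot and background medians. Values were put on log2, averaged over spots of a probe, and set against the array's 75th percentile over 41012 gene probes. Probes above background on at least 3 of 6 arrays were kept (23260), and a gene was represented by its probe of highest mean level. Coordinates are RefSeq GRCr8. The groups were tested with limma (lmFit and eBayes, two-sided), and the same fit was also run on simulated data (R 4.3.3, limma 3.58.1, Python 3.11.15, matplotlib 3.10.9). Genes and lists were chosen with earlier results of these data known. The naming rule takes all 10 genes with every probe, up to 4 called genes per pathway list, the 3 genes most like the gene with the largest difference and, per marker list, up to 3 genes with the highest level and the markers not above background.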

Additional observations from a re-analysis of the deposited data

How the results depend on the processing

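Slc27a5 was above 0 under all 20 alternatives that gave a value, from 1.86 (spike-in scaling) to 4.72 (authors' value table), and leaving out each array gave 2.03 to 2.40. The control spots were all below the background limit, so sizes are not read beyond a lower bound. That bound, at least 3.4-fold, was taken under 75th percentile scaling only. It was not taken again under the alternatives, and need not hold under spike-in scaling, where the difference was smaller. The 20 alternatives describe values that had a part in the choice of the gene. Its call was lost with plain background subtraction (4.51 ± 1.07) and on the inferred slide 2 alone (2.34 ± 0.28), an alternative added after seeing the data in which control 3 is the lone control array and is assumed to vary like the LIPUS arrays. Acsl1, Acsl4 and Slc27a1 kept their sign under all 21 alternatives (0.03 to 0.93, −0.85 to −0.36 and −0.57 to −0.06). Slc27a2 and Acsl3 had the other sign under spike-in scaling (−0.09 and −0.04), and Acsl5 ranged from −0.39 to 0.06. Spike-in scaling rested on 5 spike-in probes. It put the median of all features at −0.32, below the values of Slc27a2 and Acsl3.

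Over all features, limma called 1449. It called 612 with plain subtraction, 655 with no filter on dim probes, 809 in the value table (35.8% of them higher, against 43.6%), 282 with the slide as a block, 2424 with array weights and 3719 under spike-in scaling (5.3% higher). Median scaling gave 1462 with 32.3% higher. On slide 2 alone it called 0, with 3336 at an unadjusted p under 0.05. Leaving out one array gave 642 (without control 1) to 2168 (without control 3).

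Of the transporter and synthetase genes, 1 was called. The count was 0 with plain subtraction (2 at an unadjusted p under 0.05), on slide 2 alone (3) and with probes above background on all 6 arrays (1), where Slc27a5 is not tested. It was 2 under spike-in scaling, with every probe tested on its own, and with a probe little at the scanner limit. At an adjusted p threshold of 0.1 it was 1.

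Of the pathway genes, limma called 1. The count was 0 with plain subtraction (9 at an unadjusted p under 0.05), no filter (11), the value table (11), the slide as a block (3) and slide 2 alone (4). It was 3 with quantile normalization and with probes above background on all 6 arrays, 4 with array weights and 12 under spike-in scaling, all lower. Leaving out one array gave 0 (without control 1 or LIPUS 2) to 4 (without control 3). Without control 2 the 1 call was Acaa1b and not Scd. The cause of these changes was not tested.

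Replicate numbers showed no pairing in the levels: deviations of same-numbered arrays correlated at 0.00107, 0.00948 and −0.0124. This cannot tell whether same-numbered samples shared an animal or culture, which the labels do not say. With the replicate number as a block, limma called 1175 features, 1 transporter or synthetase gene and 1 pathway gene. Signal over background limits Slc27a5 to a lower bound, whose control spots were all below the background limit, and gives no difference for Acsl6.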
